A study of Mus musculus with 6 samples.

Results

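Thick ascending limb genes are described here in RNA from dissected mouse proximal tubules: Umod, Slc12a1, Egf, Cldn10, Cldn16, Cldn19, Kcnj1 and Ptger3. The members are the probe sets annotated with one of these symbols and no other, which gave 12 of the 45101 probe sets in the table and 8 of 18193 genes. No probe set that carries several symbols held one of the 8. The arrays were Affymetrix mouse expression arrays, 3 from Clcn5 knockout mice and 3 from wild type mice, and Clcn5 encodes the endosomal chloride/proton exchanger ClC-5. Tubules were cut by hand in cold salt solution after perfusion of the left kidney under halothane, with 80 to 100 pieces of 2 mm from each kidney, and RNA of several mice was combined for an array. The labels give 3 to 4 mice for a pool and the array records give 7, a difference that could not be settled. Strain, sex, age and the deleted stretch of Clcn5 are not given in the sources used here. Per those records, each array of a group is a biological replicate, and the p-values measure the spread between such pools.

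The thick ascending limb follows the thin limb of the loop of Henle and is known for taking up salt without water, which dilutes the urine. Sodium, potassium and chloride enter its cells together, potassium returns to the lumen through an apical channel, and the resulting lumen-positive voltage drives calcium and magnesium between the cells through claudin pores. The segment also makes uromodulin, the most abundant protein of normal urine, and the precursor of epidermal growth factor. It lies outside the proximal tubule, and the arrays do not tell which cells of the dissected pieces gave a signal. The proximal tubule makes a form of Cldn10 of its own, and Egf and Kcnj1 are also expressed further along the distal nephron.

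The main finding on these genes was a modest rise of a few of them in the knockout samples. Umod was 1.33-fold higher and Slc12a1 1.21-fold higher, and both passed the test over all genes. Cldn10 was 1.23-fold higher without passing it, and Egf, Cldn16, Kcnj1 and Ptger3 had changes from −0.13 to 0.15 on the log2 scale, none of which passed. Of the 8 genes, 7 were bright enough to be tested, 2 rose and none fell by limma with an adjusted p under 0.05. Among all 11620 tested genes, 3.24% rose and 3.24% fell by the same rule. Calls were commoner among bright genes, and Slc12a1 and Umod lay at percentiles 97.0 and 99.5 of mean signal. With a stricter filter, at percentile 75, 2 of 5 member genes and 733 of 6956 genes passed, against 753 of 11620. The calls were sensitive to the scaling of the arrays: with each array centred on its own median signal, neither Umod (adjusted p = 0.0966) nor Slc12a1 (adjusted p = 0.407) passed, at log2 changes of 0.42 and 0.28. With quantile normalization both passed (limma adjusted p = 3.37e-04 and 0.00952), and 827 genes in all did. In bulk samples such as these, more or fewer cells of a type and more or less RNA per cell cannot be told apart.

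The DNA just before the starts of the 3 genes with non-overlapping groups is printed to place the genes in the genome; the arrays did not measure promoters. RefSeq windows on GRCm38.p6 were found for all 8 genes, 11 windows in all, and each is shown for the 250 bases before a start, 5′ to 3′ on the gene's strand. Capitals mark the motif GTTAAT on either strand. TATAAA, the TATA box, and TCAAGGTCA, an extended half-site of the estrogen-related receptors, were also searched on both strands, with no overlap between matches, and were found in none of the 11 windows. The Umod window is chr7:119479263-119479512 on the minus strand, that of Slc12a1 chr2:125152350-125152599 on the plus strand, and those of Cldn10 chr14:118787621-118787870 and chr14:118854700-118854949 on the plus strand.
Umod: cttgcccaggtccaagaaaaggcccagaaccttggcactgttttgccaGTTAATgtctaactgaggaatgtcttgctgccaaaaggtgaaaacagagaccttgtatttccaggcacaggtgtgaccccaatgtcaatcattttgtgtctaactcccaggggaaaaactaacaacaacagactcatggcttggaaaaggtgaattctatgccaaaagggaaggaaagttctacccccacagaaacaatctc
Slc12a1: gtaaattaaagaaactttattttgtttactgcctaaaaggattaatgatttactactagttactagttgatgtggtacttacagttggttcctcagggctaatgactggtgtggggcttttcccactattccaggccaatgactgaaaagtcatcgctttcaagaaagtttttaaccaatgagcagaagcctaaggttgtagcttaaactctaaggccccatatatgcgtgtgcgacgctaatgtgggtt
Cldn10, first start: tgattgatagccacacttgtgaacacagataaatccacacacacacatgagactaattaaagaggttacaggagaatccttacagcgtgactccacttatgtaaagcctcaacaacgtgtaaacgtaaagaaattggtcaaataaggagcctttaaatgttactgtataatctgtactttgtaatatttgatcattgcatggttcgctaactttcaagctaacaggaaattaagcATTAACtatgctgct
Cldn10, second start: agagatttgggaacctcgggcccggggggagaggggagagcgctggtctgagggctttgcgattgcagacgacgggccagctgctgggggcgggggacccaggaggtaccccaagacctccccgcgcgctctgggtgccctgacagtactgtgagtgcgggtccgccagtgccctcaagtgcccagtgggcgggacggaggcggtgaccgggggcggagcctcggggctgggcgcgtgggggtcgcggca
GTTAAT was present in the Umod window, beginning 202 bases before the start, and on the opposite strand in the window of the first Cldn10 start, beginning 15 bases before it. It was found in 6.43% of all 32851 windows of this length, TATAAA in 12.4% and TCAAGGTCA in 0.387%. A match describes letters only and is no evidence of a bound factor. The starts of Cldn10 lie 67079 bases apart, and the single Cldn10 probe set cannot be assigned to one of them from the table used here.

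The values are MAS5 signals, on a linear scale, and the authors scaled every array so that the trimmed mean was 150. The median signal of an array was 40.9 to 45.3 on 5 arrays and 48.8 on knockout array 3, which stood apart. Clcn5, the check of the labels, was 2.83-fold to 7.31-fold lower in knockout on its 4 probe sets. The samples carried strong signals of the proximal tubule: the summed signal of 8 markers of its S1 and S2 segments was 29368 to 31393 in knockout and 29078 to 32785 in wild type. Thick ascending limb signals were strong too. The sum over the 8 members was 14063 to 15529 in knockout and 11918 to 12463 in wild type, with Umod and Egf the brightest.

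Slc12a1 encodes NKCC2, the apical sodium-potassium-chloride cotransporter that loop diuretics block. On probe set 1424260_at its signals were 1663, 1774 and 1546 on knockout arrays 1, 2 and 3 and 1384, 1303 and 1433 on the wild type arrays. Every knockout array lay above every wild type array, with the closest pair being knockout array 3 and wild type array 3. The means were 1661 ± 114 (SD, n = 3) and 1373 ± 65.9 (SD, n = 3), a log2 change of 0.27 (SE 0.07, limma adjusted p = 0.0448). This call lies close to the threshold: in the fit over all kept probe sets, where 1 gene can count several times, the adjusted p was 0.0638. It also ended without any 1 of 5 arrays, all except knockout array 3, with adjusted p from 0.068 to 0.154. The other probe set of Slc12a1, 1421390_at, was dim, with signals of 18.1 to 33.4 in wild type and 19.6 to 31.2 in knockout, and fell below the filter. Its log2 change in the fit without a filter was −0.02, with a 95% interval of −0.86 to 0.82, so it neither repeats nor contradicts the brighter one.

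Kcnj1 encodes ROMK, the apical potassium channel that returns potassium to the lumen and keeps the cotransporter supplied. Its signals on probe set 1418613_at were 1054, 1083 and 886 in knockout and 1013, 1104 and 943 in wild type. The groups overlapped, although knockout array 3 lay below all wild type arrays and wild type array 2 above all knockout arrays. Within both groups array 2 was the highest and array 3 the lowest. The log2 change was −0.02 (SE 0.09, limma adjusted p = 0.936), with a 95% interval of −0.22 to 0.18. The other probe set, 1418614_at, gave 407, 439 and 364 in knockout and 407, 409 and 362 in wild type, with a log2 change of 0.04 (95% interval −0.17 to 0.24). Both probe sets of the channel therefore overlapped between groups. Neither interval reaches the log2 change of Umod, 0.41, or that of Slc12a1, 0.27.

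Dividing by Kcnj1 on the same array removes the scaling of the array. Kcnj1 was chosen for this after its values were seen, so the ratios are a description with no test. The ratio of Umod to Kcnj1 was 4.62, 4.80 and 6.10 on the knockout arrays and 3.85, 3.30 and 4.32 on the wild type arrays. The ratio of Slc12a1 to Kcnj1 was 1.58, 1.64 and 1.74 in knockout and 1.37, 1.18 and 1.52 in wild type, and that of Cldn10 to Kcnj1 was 2.21, 2.38 and 2.32 against 1.95, 1.75 and 1.85. In these 3 ratios the knockout arrays lay above all wild type arrays. The ratio of Egf to Kcnj1 overlapped, at 3.78, 4.33 and 4.68 in knockout and 3.69, 3.41 and 4.28 in wild type. Umod, Slc12a1 and Cldn10 thus stood higher relative to Kcnj1 in knockout than in wild type. These 3 genes had separate groups before the division, and Kcnj1 had a log2 change of −0.02. The ratios therefore largely restate that separation and cannot decide how far the calls depend on the scaling of the arrays. The share of all genes that stand apart in a ratio to Kcnj1 was not counted.

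Claudins form the pores and seals between cells, and of the 3 claudin genes among the 8, Cldn10 was the one with separate groups. Claudin-10 forms a cation pore in the thick ascending limb and, in another form, an anion pore in the proximal tubule. Its probe set 1426147_s_at had signals of 2332, 2583 and 2055 in knockout and 1976, 1927 and 1749 in wild type. All knockout arrays were above all wild type arrays, although knockout array 3 exceeded wild type array 1 only slightly. The means were 2323 ± 264 (SD, n = 3) and 1884 ± 119.5 (SD, n = 3), with a log2 change of 0.30 (SE 0.09, limma adjusted p = 0.0786). The gene passed without knockout array 3, at a log2 change of 0.38 (limma adjusted p = 0.0224), and in the 3 other settings named in the closing section. By Affymetrix naming, the suffix of this probe set marks probes that can match more than 1 transcript.

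Cldn16 and Cldn19 encode claudins that act together in the reabsorption of magnesium and calcium, and loss of either wastes magnesium in the urine. Cldn16 signals on 1420434_at were 61.8, 85.6 and 88.2 in knockout and 76.9, 50.3 and 95.01 in wild type. The wild type arrays held both the lowest and the highest value, and the log2 change of 0.12 had a wide 95% interval of −0.43 to 0.66 (limma adjusted p = 0.862). Cldn19, on 1425727_at, was below the filter, with signals of 26.7, 35.7 and 46.7 in knockout and 17.5, 23.3 and 49.1 in wild type. In both groups array 3 gave the highest Cldn19 signal, and the log2 change without a filter was 0.38 (95% interval −0.55 to 1.32, limma adjusted p = 0.793). The log2 change of Umod, 0.41, lies inside both intervals, so a change of that size was not excluded for these claudins, whose SEs were 0.25 and, without a filter, 0.41.

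Umod encodes uromodulin, also called Tamm-Horsfall protein, which is shed into the lumen and polymerises there. Its signals on probe set 1456306_a_at were 4868, 5194 and 5402 on knockout arrays 1, 2 and 3 and 3899.9, 3647 and 4079 on the wild type arrays. The lowest knockout array was above the highest wild type array by more than the SD of either group. The means were 5155 ± 269 (SD, n = 3) and 3875 ± 217 (SD, n = 3), a log2 change of 0.41 (SE 0.07, 95% interval 0.25 to 0.57, limma adjusted p = 0.00565). The other Umod probe set, 1426252_a_at, had signals of 3719.8, 3642 and 3393 in knockout and 2674, 2576 and 2837 in wild type. Its groups were separate too, and its log2 change was also 0.41 (SE 0.07, limma adjusted p = 0.00586 in the fit over kept probe sets). The order of the knockout arrays differed between the probe sets, with array 3 highest on the first and lowest on the other. The ratio of one Umod probe set to the other on an array was 1.44 ± 0.142 (SD, n = 3) in knockout and 1.44 ± 0.0214 (SD, n = 3) in wild type.

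Both Umod probe sets passed in the fit over kept probe sets, and they were the only 2 of the 9 kept member probe sets that did. In that fit 4.76% of 22519 probe sets passed in either direction and 2.29% were higher in knockout. The 4 kept probe sets whose groups did not overlap were those of Umod, the brighter one of Slc12a1 and that of Cldn10, all with knockout above, where 23.2% of the kept probe sets had separate groups in either direction. None of the 3 dim member probe sets had separate groups or passed. Over all 45037 probe sets without a filter, 17.6% had separate groups, 9.03% with knockout above, and 1.89% passed. Probe set 1456306_a_at no longer passed in the probe set fit without wild type array 1 (limma adjusted p = 0.0564).

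Egf encodes the precursor of epidermal growth factor, a membrane protein whose cleaved product reaches the urine and regulates magnesium transport downstream. Its signals on 1418093_a_at were 3981, 4688 and 4148 in knockout and 3741, 3761 and 4032 in wild type. Knockout array 1 fell below wild type array 3, so the groups overlapped. The means were 4273 ± 370 (SD, n = 3) and 3845 ± 163 (SD, n = 3), and the log2 change was 0.15 (SE 0.08, 95% interval −0.02 to 0.32, limma adjusted p = 0.331). Egf did not rise by this test, and its interval includes the log2 change of Slc12a1 but not that of Umod.

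Ptger3 encodes EP3, a prostaglandin E2 receptor that lowers cyclic AMP and so restrains salt uptake in this segment. On probe set 1450344_a_at the signals were 76.7, 85.6 and 90.4 in knockout and 91.9, 102.7 and 82.3 in wild type. The groups overlapped, with the highest value on wild type array 2, and the log2 change was −0.13 (SE 0.15, 95% interval −0.47 to 0.21, limma adjusted p = 0.72). The other probe set, 1425251_at, had signals of 4.06 to 11.6 over all arrays and was below the filter. Of the 7 tested genes Ptger3 and Kcnj1 were those with a log2 change below 0.

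**Figure D1:**
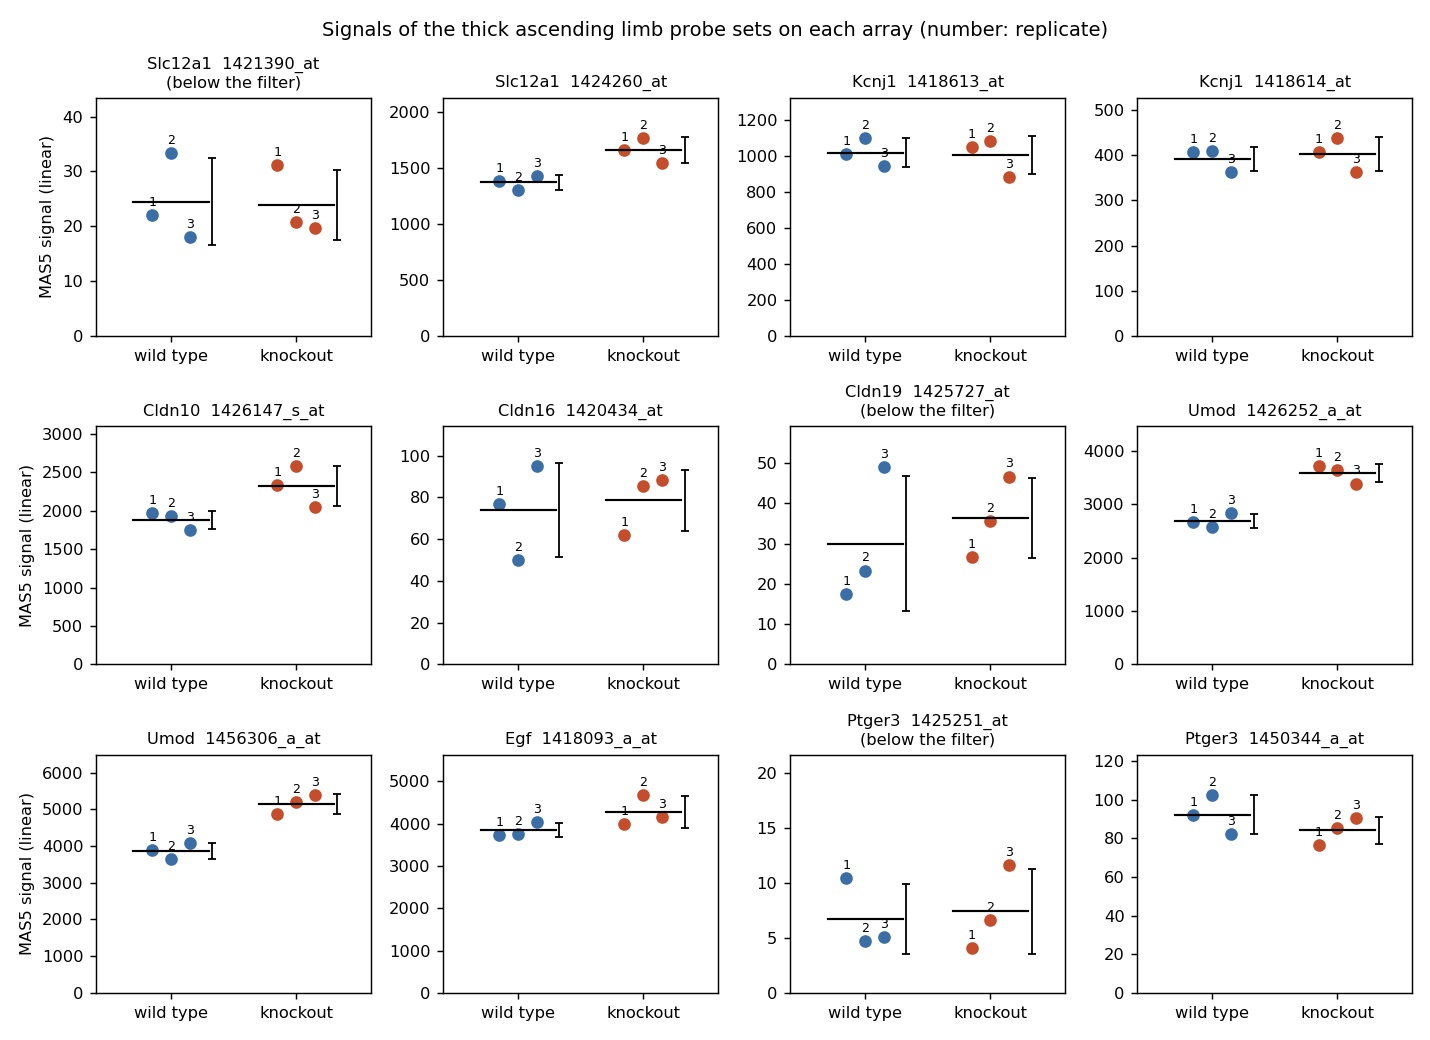
MAS5 signal on a linear axis that starts at 0 (vertical), for wild type and knockout (horizontal), in a panel for each of the 12 member probe sets; points are arrays, labelled by replicate number, horizontal lines are means and bars are 1 SD over 3 arrays. The knockout points of Slc12a1 1424260_at, Cldn10 and both Umod probe sets lie above all wild type points, and the points of the other 8 probe sets overlap.

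**Figure D2:**
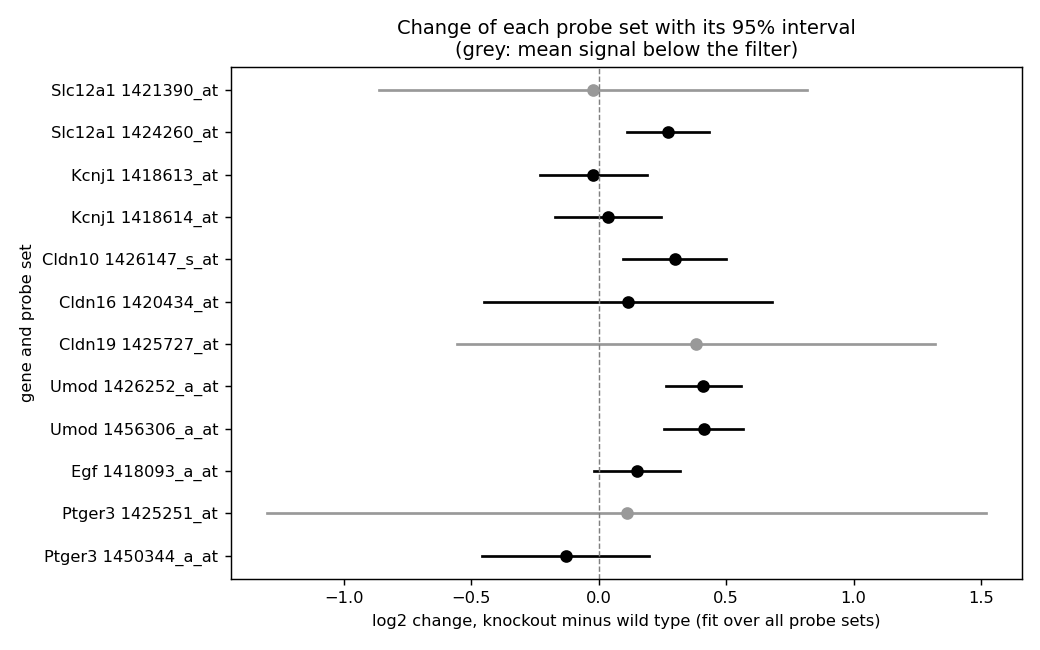
Log2 change, knockout minus wild type, with its 95% interval (horizontal) for each of the 12 member probe sets (vertical), from the limma fit over all probe sets without a filter; grey marks the 3 probe sets below the filter. The intervals of both Umod probe sets, of Slc12a1 1424260_at and of Cldn10 lie above 0, before any adjustment for multiple testing, and those of the dim probe sets are the widest.

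The arrays were washed on 2 fluidics stations, both of which held arrays of each group. Station 2 held knockout array 3 and wild type array 2, and the other 4 arrays were on station 1. The log2 change of Umod was 0.33 on station 1 (limma adjusted p = 0.0497) and 0.57 on station 2, where 1 array a group allows no test. For Slc12a1 the changes were 0.29 (limma adjusted p = 0.0771) and 0.25, and for Cldn10 0.40 (limma adjusted p = 0.0537) and 0.09. The direction of these 3 genes was the same on both stations. Their groups did not overlap over all arrays, so this was fixed in advance and is no separate result. With the station as a block the adjusted p of limma was 0.00859 for Umod, 0.0246 for Slc12a1 and 0.0806 for Cldn10. The changes of Cldn16 and Kcnj1 on station 2 were 0.81 and −0.32.

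Across the 6 arrays the 7 tested genes did not move as a block. Pearson's r of the log2 signals, a description over 6 arrays that share the group difference, was 0.88 between Slc12a1 and Umod, 0.86 between Slc12a1 and Cldn10 and 0.84 between Slc12a1 and Egf. Between Kcnj1 and Umod it was −0.33. After the group means were removed, r was 0.19 between Slc12a1 and Umod, 0.53 between Slc12a1 and Cldn10 and 0.87 between Kcnj1 and Cldn10. The highest and lowest r of all pairs were then 0.96 between Cldn16 and Umod and −0.82 between Kcnj1 and Umod. The mean of the 7 genes' log2 signals, each taken relative to its own mean, was 0.18 on knockout array 2, 0.06 on knockout array 3 and −4.57e-04 on knockout array 1, against −0.06, −0.13 and −0.04 on wild type arrays 1, 2 and 3. Knockout array 2 was thus the highest of the 6 and wild type array 2 the lowest. The tested genes outside the 8 whose log2 signals followed this mean most closely were Naa30 (r = 0.995 over 6 arrays), Fhl1 (0.99), S100a10 (0.985), Gskip (0.983) and Gng12 (0.983). With 11620 genes to choose from and 6 arrays, values this high are chosen by the ranking itself, and none of the 5 passed the test (limma adjusted p from 0.0615 to 0.245).

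**Figure D3:**
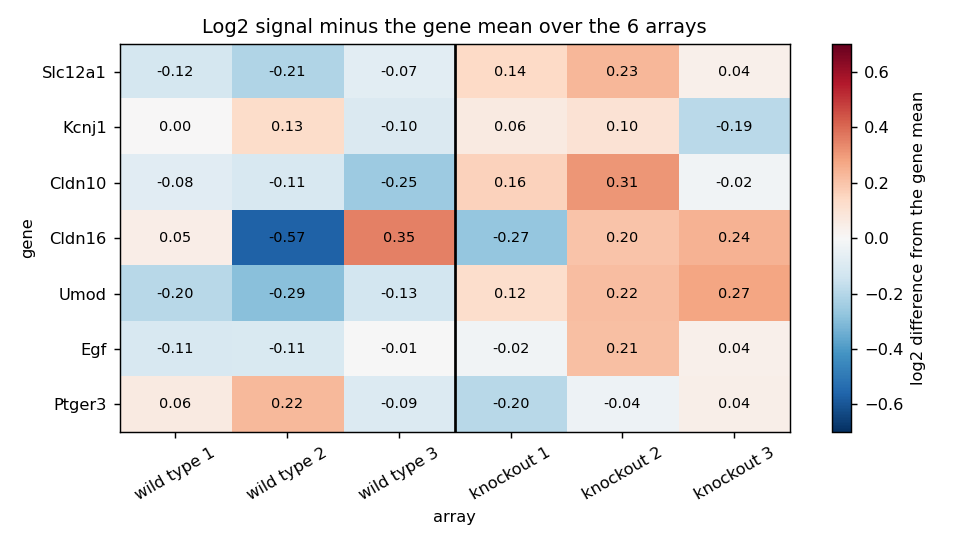
Log2 signal of the 7 tested genes minus each gene's mean over the 6 arrays (colour scale and printed value), by gene (vertical) and array (horizontal), with a line between the groups. Umod and Slc12a1 are below their mean on the 3 wild type arrays and above it on the 3 knockout arrays, while Kcnj1, Cldn16 and Ptger3 hold both signs within each group.

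Other genes of the thick ascending limb, taken from a list of 52 with its transporters, regulators, receptors and transcription factors, showed no member past the threshold. Of the 52, 48 had a probe set with only their symbol and 43 were tested. By limma none rose and none fell, and 12 had an unadjusted p under 0.05. Among all tested genes 6.48% passed and 2249 of 11620 had such an unadjusted p. Of the 43, 31 had a log2 change above 0, where 51.7% of all tested genes did, and the groups did not overlap in 11, where 25.2% of all genes had such groups. The median log2 change was 0.09 for these 43, 0.15 for the 7 tested members and 0.01 for all genes. Of the 48 genes, 19 are also known from the proximal tubule, and for these the segments cannot be told apart. The median was 0.07 over the 24 tested genes that are not and 0.09 over the 19 that are. The 24 were not sorted by whether later segments also express them, so their median does not single out the thick ascending limb.

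By role, the kinases and trafficking proteins that control NKCC2 had a median log2 change of 0.13, with 8 of 9 tested genes above 0. The largest value of the whole list was in this group: Stk39, which encodes the kinase SPAK that activates the cotransporter, had signals of 74.7 ± 22.3 (SD, n = 3) in knockout and 53.3 ± 9.13 (SD, n = 3) in wild type (log2 change 0.46, limma adjusted p = 0.346). Its groups overlapped. The transcription factors had a median of 0.23 over 6 tested genes, among them the nuclear receptor gene Esrrb at 146 ± 36.1 against 105 ± 10.9 (log2 change 0.45, limma adjusted p = 0.191). The 8 tested genes of salt transport had a median of 0.05. Bsnd, which encodes the membrane protein barttin, had the lowest value of the list, at 179 ± 47.7 in knockout and 240.4 ± 11.5 in wild type (log2 change −0.45, limma adjusted p = 0.137). Knockout array 2, at a signal of 234, lay within the wild type range of 233 to 254, and the other knockout arrays were at 157 and 147.

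Defb1, which encodes an antimicrobial beta-defensin, showed the same order of arrays within each group as Bsnd, although its knockout array 2 was above every wild type array. Its signals were 2663, 3719 and 2369 in knockout and 3575, 3506 and 3700.2 in wild type, with a log2 change of −0.33 (limma adjusted p = 0.208). Without knockout array 2, Bsnd and Defb1 had log2 changes of −0.66 (limma adjusted p = 0.00635) and −0.52 (limma adjusted p = 0.00587), and without knockout array 1 Esrrb was at 0.64 (limma adjusted p = 0.0426). The secreted and other products had a median of 0.12 over 9 genes, the receptors and cyclase 0.04 over 5, and the tight junction and divalent cation genes −0.03 over 5. The lone tested macula densa enzyme, Nos1, was at −0.28 (limma adjusted p = 0.166). The 3 genes of the list with the smallest adjusted p, singled out after their values were seen, were the anion exchanger gene Slc4a2 at 0.29 (0.0736), the creatine kinase gene Ckb at 0.27 (0.0843) and the ubiquitin ligase gene Nedd4l at 0.20 (0.0937), all by limma.

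Markers of several other cell types were also higher in the knockout samples, and their part in the Umod and Slc12a1 results was not tested. In the distal convoluted tubule, the segment that follows, 3 of 6 tested markers rose and none fell: the calcium buffer genes Pvalb (1.38-fold) and Calb1 (1.35-fold) and the magnesium channel gene Trpm6 (1.31-fold). The summed signal of the 6 was 12434 to 13218 in knockout and 10284 to 11544 in wild type, while Slc12a3, the salt cotransporter that defines the segment, had a log2 change of −0.12 (limma adjusted p = 0.56). Of 5 intercalated cell markers 2 rose, Slc4a1 (1.49-fold) and Slc26a4 (1.21-fold), with sums of 2397 to 2479 against 1968 to 2045. Of 6 tested principal cell markers 2 fell, the water channel genes Aqp3 (log2 change −0.53) and Aqp2 (log2 change −0.49), with sums over all 7 of 3507 to 3703 against 3832 to 4288. Of the same 6, 2 others had a log2 change above 0, the larger at 0.28, and neither passed.

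Of 7 leukocyte markers 3 rose, led by Cd74 (1.66-fold) and H2-Aa (1.61-fold), with sums of 3083 to 3328 in knockout and 1999 to 2084 in wild type. Of 4 tested podocyte markers 2 rose, Synpo (1.66-fold) and Nphs1 (1.56-fold), with sums of 1070.3 to 1362 against 856 to 904. In the S3 segment of the proximal tubule, which ends near the loop, Aadat (1.98-fold) and Slc7a13 (1.29-fold) rose out of 5, with sums of 8131 to 8746 against 5787 to 5971. These 2 genes made up most of the sums, with means of 2974 and 4777 in knockout and 1504 and 3692 in wild type. The lowest log2 change of the 5 was −0.18. Of the 8 S1 and S2 markers 1 fell, Slc6a19 (1.42-fold), and Gatm was at −0.15. Of 2 tested thin limb markers Cryab rose 1.46-fold and Slc14a2 was at −0.54, with sums of 275 to 331 against 253 to 280.4 for all 5. No endothelial marker of 7 and no fibroblast or smooth muscle marker of 6 passed, with 0 and 2 at an unadjusted p under 0.05 by limma. The largest values in those lists were 0.15 for Emcn and −0.14 for Kdr, and 0.50 for Col3a1 and −0.26 for Dcn. The endothelial sums were 1741 to 1799 in knockout and 1703 to 1775 in wild type, and the fibroblast and smooth muscle sums over all 7 genes 1129.5 to 1161 and 985 to 1070.3. No marker had a signal of 0.

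**Figure D4:**
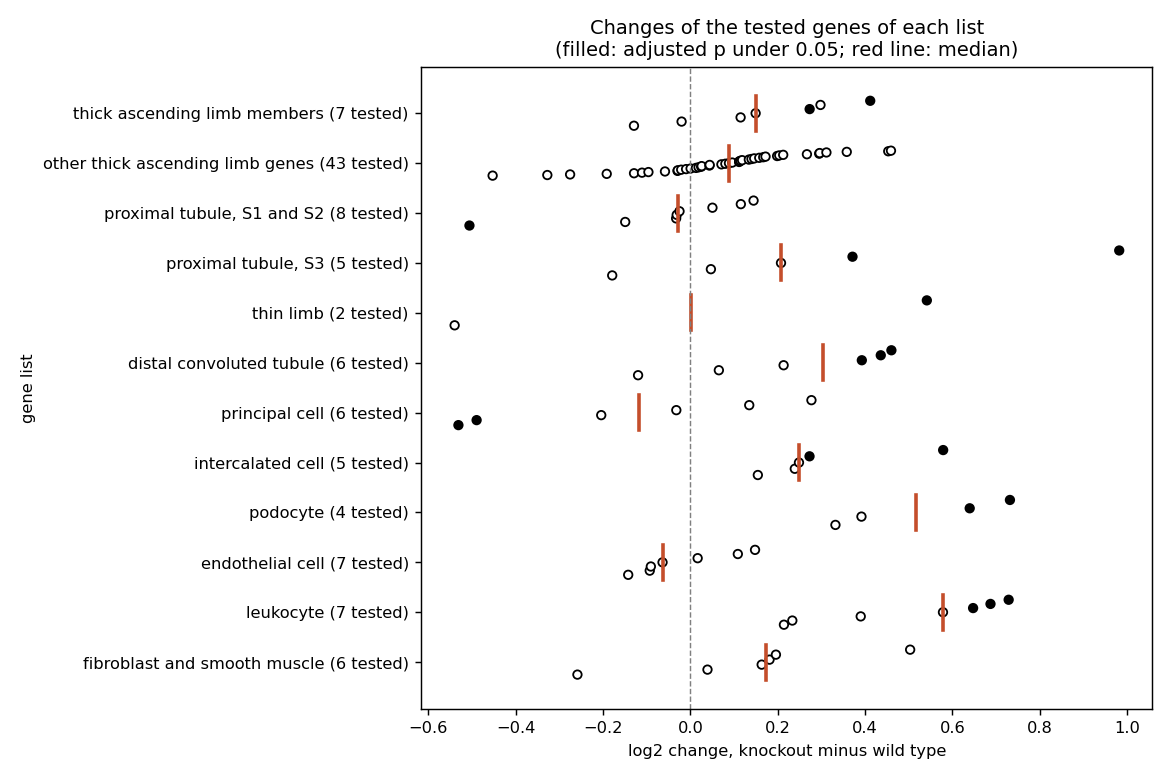
Log2 change, knockout minus wild type (horizontal), of every tested gene of the thick ascending limb members, the other thick ascending limb genes and 10 cell type lists (vertical); filled points passed limma at an adjusted p under 0.05 and red lines are medians. The members have a median of 0.15 with 2 filled points, the other thick ascending limb genes a median of 0.09 with none, and the distal convoluted tubule a median of 0.30 with 3.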

How the data were processed

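RNA was extracted with Trizol, amplified and biotin-labelled, per the labels. The deposited values are signal intensities computed by the authors; the submitters' processing notes name GCOS 1.4 and MAS5. Detection calls were not used here, and dim signals were not judged against background. After removal of 64 controls, log2 signals without a pseudocount were filtered at the median over 45037 probe sets (a signal of 41.9), which kept 22519. For each gene the kept probe set of highest mean was used, and 11620 genes were compared with limma 3.58.1 (lmFit, eBayes with an intensity trend, R 4.3.3), two-sided, 4 residual degrees of freedom, Benjamini-Hochberg adjusted over all genes at 0.05. The same fit over all kept probe sets gave the values of further probe sets, and the fit without a filter those of dim ones. Fold changes are ratios of geometric means; means and SDs are of linear signals. The precision is limited by the number of arrays. The fit was tested on simulated data, and figures were drawn with matplotlib 3.10.9. The simulated arrays held independent values and no difference in scaling. There, 43.9% of genes given a log2 change of 0.5 were recovered, a size above that of every tested member, and 4.89% of calls were false.

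The members and gene lists were chosen with earlier results of these data known. Named genes are all members, Clcn5, every other thick ascending limb gene past the threshold with the 2 largest changes in each direction among the rest, the 5 genes most like the members' mean, and 2 genes of each cell type list by size of change. Others are said to be chosen after their values were seen, or are those past the threshold in a list and the defining Slc12a3. Alternatives changed the normalization, transform, filter, probe set choice, variance model, array weights and blocks, and left out each array in turn. The array records hold no measurement and were read for station and pool. Promoter windows come from RefSeq, GRCm38.p6, matched by symbol; proteins were not used here.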

Additional observations from a re-analysis of the deposited data

How the results depend on the processing

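The direction of Umod, Slc12a1, Cldn10 and Egf was the same in all 18 alternatives with a test, and Umod passed in 17 of them, Slc12a1 in 8 and Cldn10 in 4. The groups of Umod, Slc12a1 and Cldn10 did not overlap, so leaving out arrays could not change their direction. Changes of the filter, variance model or blocks left the estimates as they were. The shared direction was thus largely fixed in advance. Log2 changes ran from 0.33 to 0.45 for Umod, 0.22 to 0.32 for Slc12a1 and 0.22 to 0.40 for Cldn10, with adjusted p of limma from 3.37e-04 to 0.0966, 0.00952 to 0.407 and 0.0224 to 0.387. Cldn10 passed with quantile normalization, with array weights, with the replicate block and without knockout array 3. With arrays centred on their medians, 0 member genes, 0 member probe sets and 397 of all genes passed, against 2, 2 and 753; 1 member gene and 2 member probe sets then had an unadjusted p under 0.05. Without an intensity trend the counts were 1, 0 (4 at an unadjusted p under 0.05) and 487, and within station 1 they were 1, 1 and 453. Without a filter 1 member gene passed, as did 644 of 18193 genes in all. With array weights 3 member genes, 4 member probe sets and 838 of 11620 genes in all passed. The share of all genes or probe sets at an unadjusted p under 0.05 was not counted in these settings. Leaving out 1 array gave 1 to 3 member genes, 1 to 4 member probe sets, 0 to 2 other thick ascending limb genes and 512 to 733 genes in all. Fewer arrays enter the last of these settings and station 1; for the others the cause was not tested. Same-numbered arrays had correlations of −0.03 to 0.03 between their deviations from the group means, and differently numbered ones −0.07 to 0.05. These values gave no sign of pairing by the titles' numbers, but 3 arrays a group cannot exclude it. With the replicate block 2 member genes and 765 genes in all passed. Umod (limma adjusted p = 0.0132) and Cldn10 (0.0353) were among them, and Slc12a1 was not (0.0718). Dim probe sets, those of Cldn19 and Ptger3 among them, have the widest intervals.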
